A study of Mus musculus with 8 samples.

Results

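The Hox genes and a pair of long non-coding RNAs of the HoxA cluster were followed in embryonic mouse hearts that were either wild-type or homozygous for the Tbx20EH1Mut allele. The set was chosen by name rather than by level. It holds 40 of the 49315 genes counted in the series, namely 38 Hox genes (10 of HoxA, 10 of HoxB, 9 of HoxC and 9 of HoxD) and the antisense transcripts Hotairm1 and Hoxaas2. RNA was measured by bulk poly-A RNA-seq in 8 libraries of whole hearts collected at embryonic day 9.5, with 4 libraries of each genotype and 3 hearts pooled in each library. No drug or other agent was given to either genotype. In Tbx20EH1Mut, a pair of neighbouring amino acids in the EH1 motif of the cardiac transcription factor Tbx20 was exchanged by Cas9 editing in embryos from C57BL/6J oocytes, and the line was crossed back to C57BL/6J. The EH1 motif is the part of Tbx20 that contacts the TLE corepressors. The comparison asks which genes change in the heart when that contact is lost. The mutation is in the germline and is not limited to the heart, male and female animals were used, and the founder with the intended change carried it in an otherwise wild-type Tbx20 allele. Since whole hearts were pooled, fewer cells of a type and less RNA per cell cannot be told apart in any value given here.

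Hox genes encode homeodomain transcription factors that give cells their position along the head-to-tail axis. They lie in 4 clusters, and within a cluster the genes at the 3′ end, with the lowest paralog numbers, are turned on earliest and reach farthest towards the head, while those at the 5′ end are turned on later and only towards the tail. Retinoic acid is a well known inducer of the 3′ genes, and Hox proteins bind DNA together with PBX and MEIS proteins of the TALE class. In the heart, 3′ Hox genes such as Hoxa3 and Hoxb1 are known from progenitors of the posterior second heart field, which contribute to the outflow tract and the inflow region, whereas differentiated cardiomyocytes are not known for high Hox expression.

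The clusters were located on the mouse build GRCm38. Listed HoxA members span chr6:52162417-52260880 and are read from the minus strand, with Hotairm1 (chr6:52156902-52162119) and Hoxaas2 (chr6:52165674-52169564) on the plus strand. HoxB members span chr11:96194316-96368256, HoxC members chr15:102921103-103036852 and HoxD members chr2:74668310-74765142, all on the plus strand. Promoters, taken as the 250 bases before and the 50 bases after a gene's start, were available for 22 of the 40 members from RefSeq on GRCm38.p6. Those of Hoxa2, Hoxb1 and Hoxb4 are shown as 3 of the 5 called members with a promoter, the 2 that hold the PBX-HOX motif and Hoxb4, which had the lowest adjusted p of the members and holds none. They were chosen with these matches known. Capitals mark a match to the PBX-HOX motif TGATNNAT on either strand, and the start of each gene lies after base 250. Hoxa2 is at chr6:52164782-52165081 (minus strand), Hoxb1 at chr11:96365508-96365807 (plus strand) and Hoxb4 at chr11:96318017-96318316 (plus strand).
Hoxa2: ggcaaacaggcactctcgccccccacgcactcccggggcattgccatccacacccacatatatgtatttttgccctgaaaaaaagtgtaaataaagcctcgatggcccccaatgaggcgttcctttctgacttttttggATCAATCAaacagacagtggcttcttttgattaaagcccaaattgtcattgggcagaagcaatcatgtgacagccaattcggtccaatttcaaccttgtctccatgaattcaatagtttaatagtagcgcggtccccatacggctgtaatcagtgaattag
Hoxb1: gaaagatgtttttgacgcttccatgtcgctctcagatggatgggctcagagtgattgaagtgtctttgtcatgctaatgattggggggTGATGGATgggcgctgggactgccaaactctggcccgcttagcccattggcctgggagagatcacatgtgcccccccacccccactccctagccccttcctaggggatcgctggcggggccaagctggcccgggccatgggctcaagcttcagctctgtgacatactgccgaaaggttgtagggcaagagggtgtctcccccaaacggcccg
Hoxb4: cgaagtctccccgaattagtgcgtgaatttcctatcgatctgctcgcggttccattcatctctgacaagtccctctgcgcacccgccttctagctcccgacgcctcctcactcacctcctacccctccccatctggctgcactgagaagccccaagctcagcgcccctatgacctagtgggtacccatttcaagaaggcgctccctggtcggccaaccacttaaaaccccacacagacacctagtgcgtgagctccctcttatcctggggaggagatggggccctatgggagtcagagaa

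The Hoxa2 promoter holds ATCAATCA, the motif read on the opposite strand, and the Hoxb1 promoter holds TGATGGAT. The Hoxb4 promoter has no match to any motif searched. TGATNNAT was found in 4 of the 22 members with a promoter (Hoxa2, Hoxb1, Hoxb8 and Hoxd11), of which 2 are among the 5 called members with a promoter (the others are Hoxa3, Hoxa5 and Hoxb4), and in 8.85% of all 32851 mouse promoters of this length. The T-box motif AGGTGTGA was found for 1 member, Hoxd9, and in 1.28% of all promoters. The posterior Hox or Cdx-like motif TTTATNG was found for Hoxb8 and Hoxd4, and in 10.9% of all promoters. Direct repeats with a spacing of 5 bases, the form of many retinoic acid response elements (AGGTCA or AGTTCA followed by AGGTCA or AGTTCA, or GGTTCA followed by AGTTCA), were found for 0 members and in 0.0457% of all promoters. All motifs were searched on both strands, and a match describes letters in this window only. GC content was 45.7% for the Hoxa2 promoter, 59.3% for Hoxb1 and 58.0% for Hoxb4, against a median of 52.7% over all promoters.

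Total counts on genes lay between 33359322 and 49523086 in wild-type libraries and between 36250675 and 38357025 in Tbx20EH1Mut libraries. Levels are given as CPM (counts relative to the TMM-scaled library size, in units of 1e6 counts) in replicates 1 to 4. Tbx20 itself was counted at 353 to 379.6 CPM in the wild-type and 215 to 317 CPM in Tbx20EH1Mut libraries, which does not report on the exchanged amino acids. The 9 cardiomyocyte markers summed to between 31383 and 36162 CPM in the wild-type and between 28095 and 39310 CPM in Tbx20EH1Mut hearts, so the labelled tissue carries its defining messages in every library. Of these markers 0 were called higher and 1 lower, against 14% and 15.3% of all genes tested. This was Myh6, which fell from a mean of 3861 to 1612 CPM (log2 fold change -1.26, adjusted p = 8.66e-04 with edgeR). The call of Myh6 held in all 8 fits with 1 library left out. Of 12 foregut and pharyngeal endoderm markers, 7 were called higher and 0 lower, and their sum was 201 to 309 CPM in the wild-type and 690 to 935 CPM in Tbx20EH1Mut libraries. Krt8 and Krt18 made up most of that sum, and the other 10 markers summed to 11.5 to 75.3 CPM and 67.6 to 249 CPM, which overlap in wild-type replicate 2 and Tbx20EH1Mut replicate 3. With 1 library left out 4 to 11 of all 12 markers were called higher, the lowest count when wild-type replicate 3 or 4 was absent and the highest when wild-type replicate 2 was. Epcam, an epithelial adhesion molecule, was at 1.64, 15.3, 0.657 and 3.03 CPM in the wild-type and at 75.4, 67.2, 10.7 and 27.5 CPM in Tbx20EH1Mut libraries. Wild-type replicate 2 thus stood above the other wild-type libraries in Epcam and above Tbx20EH1Mut replicate 3, and Tbx20EH1Mut replicates 1 and 2 were the highest of all. The count of called members is also given without these 3 libraries.

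Expression of the 3′ part of the HoxA and HoxB clusters and of both antisense transcripts was higher in Tbx20EH1Mut hearts. Of the 40 members, 13 passed the filter on low counts (10 counts at the median depth, or 0.264 CPM, in at least 4 libraries) and 11 of these were called higher at an adjusted p of at most 0.05. They are Hoxa2, Hoxa3, Hoxa4, Hoxa5, Hoxb1, Hoxb2, Hoxb3, Hoxb4, Hoxb5, Hotairm1 and Hoxaas2. Over all 17163 genes tested, 29.3% were called in either direction and 14% were called higher. No member was called lower (0 of 13 with edgeR, with 0 at an unadjusted p below 0.05, and 0 with DESeq2 and limma-voom), whereas 15.3% of all genes were. All 11 had a log2 fold change of at least 1, and 6.67% of the genes tested were called higher with such a change. For each of them every Tbx20EH1Mut library lay above every wild-type library, as it did for 14.7% of the genes tested. The log2 fold changes of the 13 members ran from 1.45 to 3.78 with a median of 2.76, and the median over all genes tested was 0.00477. A member that is near 0 in wild-type hearts can pass the filter only through the Tbx20EH1Mut libraries. This applies to Hoxb5, which reached the filter level in 0 of the 4 wild-type libraries, while Hoxa4 and Hoxb1 reached it in 3 and the other 8 called members in all 4. Without wild-type replicate 2 and Tbx20EH1Mut replicates 1 and 2, which left 3 wild-type and 2 Tbx20EH1Mut libraries, the same 11 members were called higher and 0 lower.

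**Figure D1:**
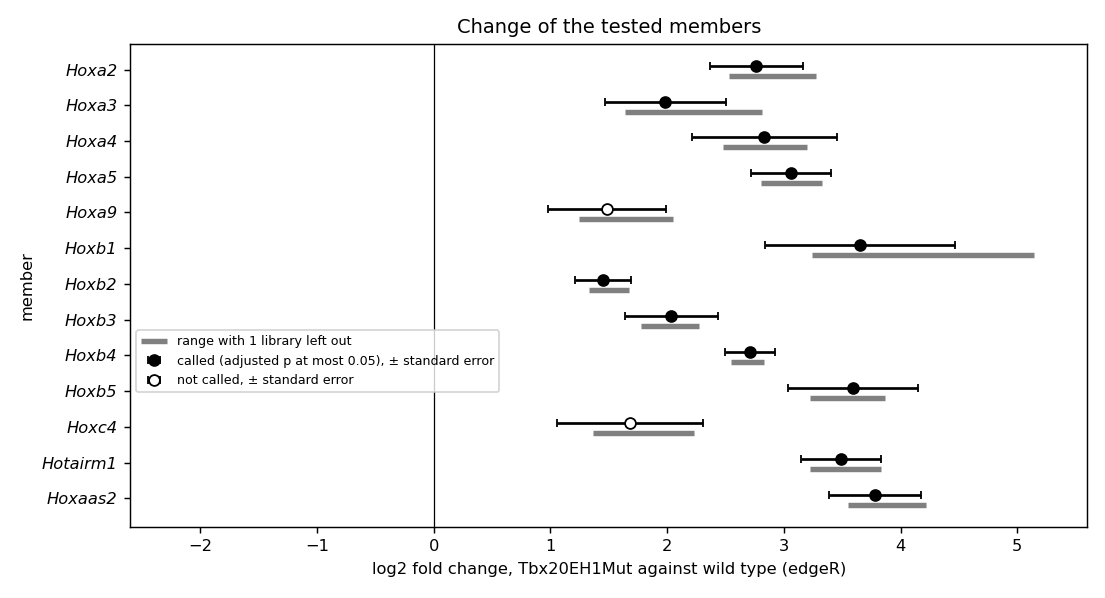
Log2 fold change (Tbx20EH1Mut minus wild-type) of the members that passed the filter, with points for the estimate, thin bars for the standard error and grey bars for the range when 1 library at a time is left out. Every estimate lies to the right of 0, from 1.45 for Hoxb2 to 3.78 for Hoxaas2, and Hoxa9 and Hoxc4 are the members that were not called.

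Among the genes of paralog groups 1 to 3, Hoxb1 had the largest estimated change. Hoxb1 (ENSMUSG00000018973, chr11:96365752-96368256) is the HoxB gene nearest the 3′ end and is known for its part in hindbrain segment identity and in the second heart field. Its level was 1.12, 4.52, 0.558 and 0.109 CPM in the wild-type and 35.2, 13.4, 12.8 and 18.6 CPM in Tbx20EH1Mut libraries. The genotypes did not overlap, and the wild-type libraries spread over a wide range with replicate 2 the highest. The log2 fold change was 3.65 (standard error, SE, 0.817, adjusted p = 0.00969), and it lay between 3.24 and 5.14 when 1 library at a time was left out, with the highest value without wild-type replicate 2.

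Hoxb2 (ENSMUSG00000075588, chr11:96350525-96354012) and Hoxb3 (ENSMUSG00000048763, chr11:96323326-96347930), both also known for hindbrain patterning, lie next to it. Hoxb2 was at 3.79, 6.95, 3.82 and 5.15 CPM in the wild-type and at 17.0, 12.96, 9.97 and 14.1 CPM in Tbx20EH1Mut libraries. Its change was the smallest among the called members, with a log2 fold change of 1.45 (SE 0.240, adjusted p = 0.00247). Hoxb3 was at 1.30, 4.54, 3.23 and 3.71 CPM in the wild-type and at 19.0, 12.9, 6.47 and 14.4 CPM in Tbx20EH1Mut libraries. The lowest Tbx20EH1Mut library of Hoxb3, replicate 3, still lay above the highest wild-type library. Hoxb3 rose by a log2 fold change of 2.04 (SE 0.396, adjusted p = 0.00509).

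In HoxA, Hoxa2 (ENSMUSG00000014704, chr6:52162417-52164831), which specifies the second pharyngeal arch, was at 1.12, 2.30, 0.618 and 0.916 CPM in the wild-type and at 12.3, 7.20, 7.60 and 6.78 CPM in Tbx20EH1Mut libraries. Tbx20EH1Mut replicate 1 stood above the other mutant libraries, and the genotypes were separate. The log2 fold change of Hoxa2 was 2.76 (SE 0.398, adjusted p = 0.00128). Hoxa3 (ENSMUSG00000079560, chr6:52169062-52213336) is needed for thymus, parathyroid and carotid body development. Its level was 0.789, 3.44, 1.02 and 0.764 CPM in the wild-type and 9.89, 5.50, 4.16 and 4.43 CPM in Tbx20EH1Mut libraries. Wild-type replicate 2 came within 1 CPM of the lowest mutant library, although the genotypes did not overlap. The log2 fold change was 1.99 (SE 0.520, adjusted p = 0.0188), and the call was lost without Tbx20EH1Mut replicate 1 (adjusted p = 0.0516), wild-type replicate 3 (0.0604) or wild-type replicate 4 (0.0558). The estimate for Hoxa3 was 2.81 when wild-type replicate 2 was left out.

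The called members of paralog groups 4 and 5 had log2 fold changes from 2.71 to 3.59. Hoxb4 (ENSMUSG00000038692, chr11:96318267-96321638), known for its effect on blood stem cell expansion, was at 6.04, 5.07, 5.16 and 3.23 CPM in the wild-type and at 34.4, 23.7, 37.4 and 32.0 CPM in Tbx20EH1Mut libraries. The mutant libraries lay far above the wild-type libraries, with replicate 2 the lowest of them and replicate 3 the highest. Hoxb4 had the lowest adjusted p of the set (5.32e-05, log2 fold change 2.71, SE 0.215). Hoxa4 (ENSMUSG00000000942, chr6:52189671-52191753), its HoxA paralog, was at 0.698, 1.24, 0.896 and 0.196 CPM in the wild-type and at 4.09, 9.03, 1.44 and 7.21 CPM in Tbx20EH1Mut libraries. Tbx20EH1Mut replicate 3 lay just above the highest wild-type library, and the standard error of Hoxa4 was larger than that of Hoxb4 (log2 fold change 2.83, SE 0.619, adjusted p = 0.00886).

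Hoxa5 (ENSMUSG00000038253, chr6:52201754-52204587), which is required for lung and airway development, was at 1.79, 1.16, 1.16 and 0.524 CPM in the wild-type and at 6.63, 10.5, 10.4 and 10.9 CPM in Tbx20EH1Mut libraries. In contrast to Hoxa2, its lowest mutant library was replicate 1. The log2 fold change of Hoxa5 was 3.06 (SE 0.343, adjusted p = 3.63e-04). Hoxb5 (ENSMUSG00000038700, chr11:96303336-96306121), the last called gene towards the 5′ end of HoxB, was at 0.121, 0.143, 0.0199 and 0.109 CPM in the wild-type and at 1.22, 1.91, 0.844 and 0.822 CPM in Tbx20EH1Mut libraries. These values rest on 17 counts over the wild-type and 177 over the Tbx20EH1Mut libraries, so that Hoxb5 is the weakest of the called members in level. Its log2 fold change was 3.59 (SE 0.558, adjusted p = 0.00180).

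**Figure D2:**
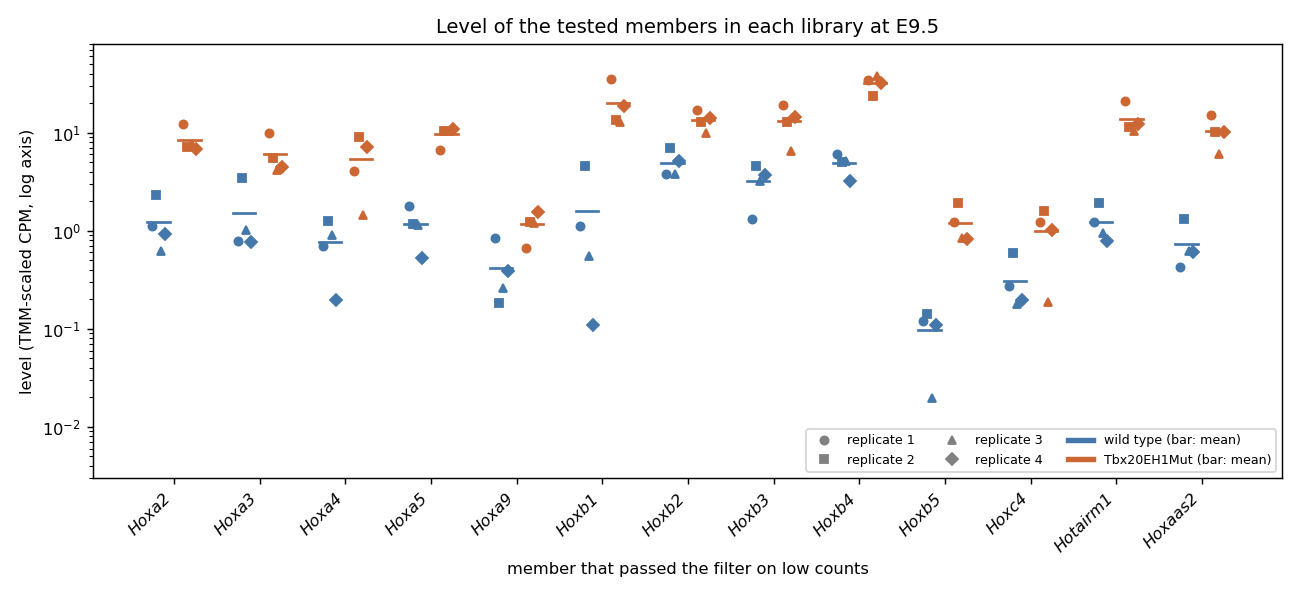
Level of the tested members in each of the 8 libraries (TMM-scaled CPM on a log axis), with 1 point per library and the genotypes side by side. For the 11 called members all Tbx20EH1Mut points lie above all wild-type points, and for Hoxa9 and Hoxc4 the genotypes overlap.

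Both antisense transcripts were among the members with the largest changes. Hotairm1 (ENSMUSG00000087658), a myeloid-associated long non-coding RNA at the 3′ end of HoxA, was at 1.21, 1.93, 0.936 and 0.786 CPM in the wild-type and at 21.0, 11.4, 10.3 and 12.2 CPM in Tbx20EH1Mut libraries. Every mutant library lay far above the highest wild-type library, with replicate 1 the highest. The log2 fold change was 3.49 (SE 0.342, adjusted p = 1.78e-04). Hoxaas2 (ENSMUSG00000056445), which starts between Hoxa2 and Hoxa3, overlaps the 3′ end of Hoxa3 and is transcribed against both, was at 0.425, 1.30, 0.618 and 0.611 CPM in the wild-type and at 14.9, 10.1, 6.001 and 10.1 CPM in Tbx20EH1Mut libraries. No wild-type library came near the lowest mutant library. With a log2 fold change of 3.78 (SE 0.394, adjusted p = 2.40e-04), it had the largest estimate of the 13 tested members.

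The strand setting of the counting is not given in the sources used here, so reads from exons shared by opposite genes cannot be assigned to one of them. Hoxaas2 shares 503 exonic bases with Hoxa3, which are 14.97% of Hoxaas2 and 8.36% of Hoxa3. Hotairm1 shares 19.3% of its exonic bases with another gene of the opposite strand. The overlap is larger in HoxB, where the antisense gene Hoxb3os shares 2250 bases with Hoxb3 (52.9% of its exons) and 953 bases with Hoxb2 (27.3%). Hoxb3os had 5627 counts over the 8 libraries, against 2565 for Hoxb3 and 2887 for Hoxb2. Hoxa2 shares exonic bases only with Gm28308, a gene of the same strand at 0 counts. Gm28308 has 752 exonic bases and shares 267 of them with Hoxa2 and 482 with Hoxa3. Since the counting tool is not given, the 0 counts of Gm28308 cannot show whether Hoxa2 lost reads in the shared bases. Hoxa5, Hoxb1 and Hoxb4 share no exonic bases with another gene of the tables.

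Some other genes inside the clusters were also called higher. The tables list 44 genes that are no members and lie whole between the outermost members, of which 26 were at 0 in every library and 9 passed the filter. Of these 9, 6 were called higher and 0 lower, with a median log2 fold change of 3.13 over the 9. Over all genes tested, 14% were called higher and 15.3% lower. Hoxaas3, which is among the 6, was at 0.0204 to 0.212 CPM in the wild-type, below the filter level of 0.264 CPM in every library. It thus passed the filter only through the Tbx20EH1Mut libraries. Among the 6, 5730596B20Rik overlapped between the genotypes and was called in 4 of 8 fits with 1 library left out (adjusted p up to 0.0907). Hoxb3os was at 7.86, 4.58, 4.62 and 4.89 CPM in the wild-type and at 29.4, 20.3, 43.5 and 36.9 CPM in Tbx20EH1Mut libraries, a log2 fold change of 2.57 (SE 0.265, adjusted p = 2.23e-04). Its highest mutant library, replicate 3, was the one in which Hoxb3 was lowest. Haglr, the antisense RNA next to Hoxd1, was not called (log2 fold change 0.98, adjusted p = 0.216). The 7 microRNA hairpins annotated in the clusters had 5 counts in all, in libraries made from poly-A RNA.

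**Figure D3:**
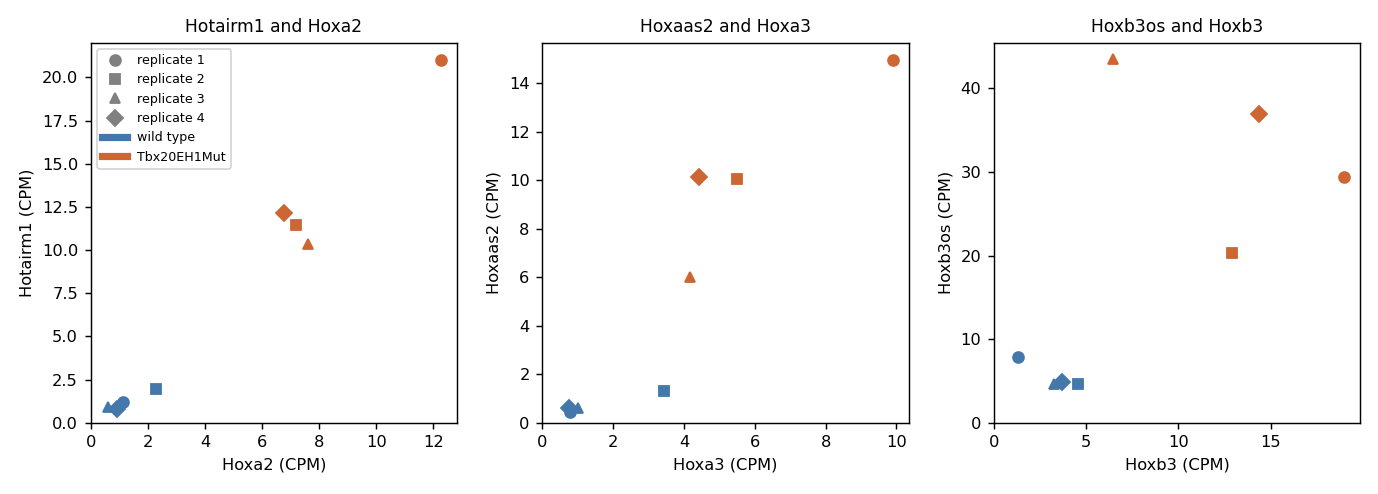
Levels of antisense transcripts against the Hox genes beside them, 1 point per library, with TMM-scaled CPM on both axes. The Tbx20EH1Mut libraries sit above and to the right of the wild-type libraries, with Hoxb3os highest and Hoxb3 lowest among the mutant libraries in replicate 3.

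Towards the 5′ end of the clusters the members were rarely counted. Of 11 listed members in paralog groups 1 to 4, 8 passed the filter and 7 were called higher. Of 11 in groups 5 to 8, 2 passed and both were called higher, and of 16 in groups 9 to 13, 1 passed and 0 were called. The member of groups 9 to 13 that passed, Hoxa9, was at 0.850, 0.183, 0.259 and 0.393 CPM in the wild-type and at 0.673, 1.22, 1.19 and 1.56 CPM in Tbx20EH1Mut libraries, which overlap. Its log2 fold change of 1.49 (SE 0.507) came with an adjusted p of 0.0501, just outside the threshold. Hoxa9 passed the threshold without wild-type replicate 1, the library that overlaps the mutants (log2 fold change 2.05, adjusted p = 0.00816), and without Tbx20EH1Mut replicate 1 (adjusted p = 0.0497).

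A total of 7 members had no count in any library (Hoxa6, Hoxb13, Hoxc10, Hoxc11, Hoxc12, Hoxd11 and Hoxd12), which allows a level of up to 0.0168 CPM over the wild-type and 0.0205 CPM over the Tbx20EH1Mut libraries at 3 counts per group. This limit covers counting error only. Hoxb6 had 0 counts in the wild-type libraries and 12, 28, 5 and 0 in the Tbx20EH1Mut libraries, so the genotypes overlap. Its pooled mutant level was 18.3-fold the wild-type limit of 3 counts, with no error put on the mutant counts. This ratio was 9.31-fold without Tbx20EH1Mut replicate 2, which held most of the mutant counts. Hoxb7 had 2 counts over the wild-type libraries and 10, 7, 12 and 8 in the Tbx20EH1Mut libraries, and its genotypes did not overlap. Both are thus counted in mutant hearts at a depth of a few reads. They did not pass the filter, and a fit without it gave adjusted p = 0.0153 for Hoxb6 and 0.0236 for Hoxb7.

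Further 5′ in HoxB, Hoxb8 had 0, 4, 5 and 2 counts in wild-type and 15, 23, 1 and 7 counts in Tbx20EH1Mut libraries, which overlap, and Hoxb9 had 1 count against 9 over each group. In HoxA, Hoxa7 had 3 counts against 4, and Hoxa10 had 10 against 36. These genes are too low at this depth for a statement on the genotype. The breaks in the clusters can be read per kilobase of exon. Hoxb4 was 53.9 times Hoxb5 in wild-type and 28.9 times in Tbx20EH1Mut hearts by their mean CPM per kilobase, and Hoxa5 was 8.17 times Hoxa9 in wild-type and 24.5 times in Tbx20EH1Mut hearts. In both genotypes the level thus falls between Hoxb4 and Hoxb5 in HoxB and after Hoxa5 in HoxA.

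The HoxC and HoxD clusters were low in both genotypes. Hoxc4 (ENSMUSG00000075394), the 3′ gene of HoxC, was the only member of these clusters to pass the filter. Its level was 0.273, 0.591, 0.179 and 0.196 CPM in the wild-type and 1.22, 1.59, 0.188 and 1.01 CPM in Tbx20EH1Mut libraries. Tbx20EH1Mut replicate 3 lay among the wild-type libraries, and the log2 fold change of 1.68 (SE 0.629, adjusted p = 0.0677) did not pass. It passed without Tbx20EH1Mut replicate 3 (adjusted p = 0.0146) or without wild-type replicate 2 (adjusted p = 0.0438). Hoxc5 had 0, 10, 27 and 7 counts in wild-type and 48, 58, 0 and 7 counts in Tbx20EH1Mut libraries, and as for Hoxc4, the mutant libraries 1 and 2 were the highest. Hoxc6 went the other way by counts, with 35 over the wild-type libraries, 24 of them in replicate 3, and 5 over the mutant libraries (adjusted p = 0.152 without the filter), and every mutant library lay below every wild-type library in CPM. In HoxD, Hoxd1 had 10, 5, 2 and 4 counts in wild-type and 17, 9, 5 and 15 in Tbx20EH1Mut libraries. Hoxd8 had 26 counts over the wild-type and 32 over the mutant libraries, and no other HoxD member had more than 24 in either genotype.

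Summed over the listed genes, HoxA was at 5.17 ± 2.33 CPM in the wild-type and 30.9 ± 4.03 CPM in Tbx20EH1Mut hearts (SD, n = 4), and HoxB at 14.8 ± 4.39 and 80.7 ± 19.1 CPM. These means differ 5.98-fold for HoxA and 5.47-fold for HoxB. HoxC was at 0.716 ± 0.388 and 1.89 ± 1.37 CPM, and HoxD at 0.403 ± 0.0885 and 0.842 ± 0.453 CPM. The spreads of HoxC and HoxD in mutant hearts reach their wild-type means. Of the summed CPM per kilobase of all listed Hox genes, HoxB made up 65.4 ± 4.20% in wild-type and 64.5 ± 5.99% in Tbx20EH1Mut hearts, and HoxA 28.4 ± 4.61% and 33.2 ± 5.50%, which overlap within their SD. HoxC made up 3.77 ± 2.11% and 1.52 ± 1.13%, and HoxD 2.45 ± 0.940% and 0.773 ± 0.262%, and of the 4 clusters only the share of HoxD differed by more than both SDs together.

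**Figure D4:**
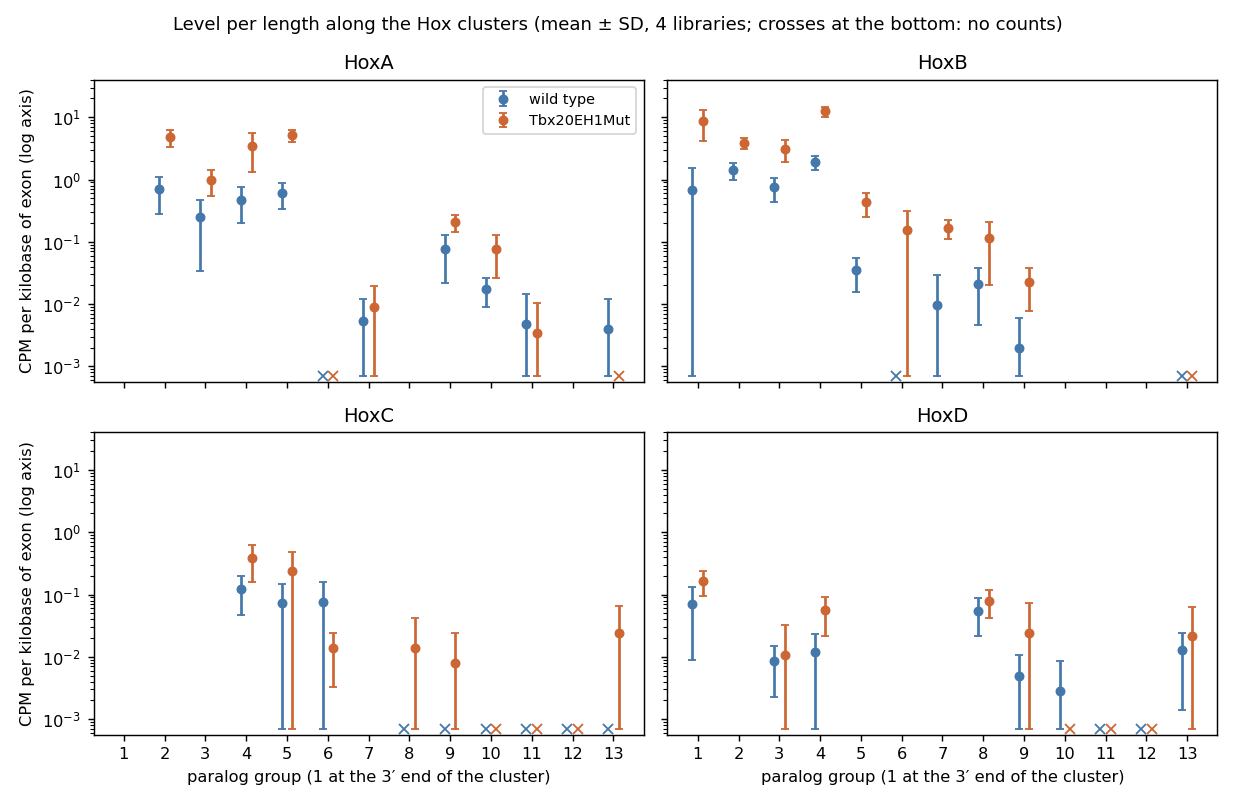
Mean level of each member along its cluster, from the 3′ to the 5′ end, in CPM per kilobase of exon on a log axis, with bars for the SD over 4 libraries (bars that reach the bottom of the axis are cut there). HoxA is highest up to group 5 and HoxB up to group 4 in both genotypes, HoxC and HoxD stay low, and crosses mark members with no count.

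Per kilobase, the tested members formed a graded series. In wild-type hearts Hoxb4 was the highest at 1.90 ± 0.460 CPM per kilobase, followed by Hoxb2 at 1.41 ± 0.426 and Hotairm1 at 1.19 ± 0.498, and these neighbours do not differ beyond their spread. In Tbx20EH1Mut hearts Hotairm1 was the highest at 13.4 ± 4.78, followed by Hoxb4 at 12.4 ± 2.29, Hoxb1 at 8.62 ± 4.51, Hoxa5 at 5.11 ± 1.06 and Hoxa2 at 4.76 ± 1.44 CPM per kilobase. The first 3 of these overlap within their SD, and so do Hoxa5 and Hoxa2. Hoxa3 was at 0.250 ± 0.216 in wild-type and 0.997 ± 0.443 CPM per kilobase in Tbx20EH1Mut hearts, and its neighbour Hoxa4 at 0.476 ± 0.274 and 3.41 ± 2.11, so that these neighbours overlap within their SD in both genotypes. Among all genes tested, Hoxb4 moved from the 39.7th percentile of mean CPM per kilobase in wild-type to the 76.4th in Tbx20EH1Mut hearts, and Hotairm1 from the 32.5th to the 77.7th.

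The members did not vary together across the mutant libraries. Paralog groups 1 to 3 summed to 93.9, 52.2, 41.2 and 58.7 CPM in Tbx20EH1Mut replicates 1 to 4, and groups 4 and 5 to 49.1, 48.4, 50.4 and 52.2 CPM. The first sum differed widely between libraries, with replicate 1 the highest, and the second was almost level (50.04 ± 1.69 CPM, SD, n = 4). The members of the second sum were not level, since Hoxb4 ran from 23.7 to 37.4 CPM and Hoxa4 from 1.44 to 9.03 CPM over the mutant libraries. All 5 tested members of groups 1 to 3 were highest in replicate 1, Hoxa5 was lowest there, Hoxb4 was highest in replicate 3 and Hoxa4 in replicate 2. In wild-type hearts the same sums were 8.44, 21.9, 9.32 and 10.8 CPM for groups 1 to 3 and 8.92, 8.45, 8.03 and 4.43 CPM for groups 4 and 5, and replicate 2 was the highest wild-type library for 10 of the 13 tested members. This split of the paralog groups was chosen after the values had been seen and was given no test.

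Wild-type replicate 2 and Tbx20EH1Mut replicate 1, the highest libraries for groups 1 to 3, were also the highest of their genotype in Epcam, and Tbx20EH1Mut replicate 3, the lowest mutant library for groups 1 to 3, was the lowest mutant library in Epcam. The order did not hold throughout, since Tbx20EH1Mut replicate 2 had more Epcam than replicate 4 (67.2 against 27.5 CPM) and less of groups 1 to 3 (52.2 against 58.7 CPM). The part of foregut tissue in the Hox levels was not tested. Without wild-type replicate 2 and Tbx20EH1Mut replicates 1 and 2, the log2 fold changes of the 11 called members lay between 1.51 and 4.79, and Hoxa9 and Hoxc4 were again not called (adjusted p = 0.110 and 0.216). Epcam still separated the genotypes in the libraries kept, at 1.64, 0.657 and 3.03 CPM against 10.7 and 27.5 CPM, so this does not remove its difference. Markers of the limb bud and lateral plate (7 of 8 tested, 3 called higher, 0 lower, summed to 43.6 to 70.0 CPM in the wild-type and 136 to 181 CPM in Tbx20EH1Mut libraries) and of intermediate mesoderm (6 of 7 tested, 3 called higher, 0 lower, 39.4 to 62.8 and 115 to 127 CPM) moved with genotype as well.

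Neural tube, somite, neural crest and tail bud are other tissues known for Hox expression. The counts of their markers stand beside shares of 14% called higher and 15.3% called lower over all genes tested. Of 10 neural tube markers 5 were tested, 2 were called higher and 0 lower, with sums of 5.94 to 17.9 CPM in the wild-type and 14.8 to 30.1 CPM in Tbx20EH1Mut libraries, and the defining marker Sox1 was at most 0.0407 CPM. Those called were Pax6 (log2 fold change 1.75, adjusted p = 0.00307) and Nkx6-1 (2.67, adjusted p = 0.0331). With 1 library left out Pax6 was called in all 8 fits and Nkx6-1 in 4 (log2 fold change 1.95 to 3.45, adjusted p up to 0.104). Sox2, which is also on the foregut list, had a log2 fold change of 2.38 (adjusted p = 0.173). Its estimate ran from 1.96 to 6.46 with 1 library left out, and it was called in 1 of these fits. Sox2 was at 6.66 CPM in wild-type replicate 2 and at most 0.152 CPM in the other wild-type libraries. Of 10 somite markers 5 were tested, 1 was called higher and 0 lower, with sums of 25.0 to 64.0 and 28.3 to 51.2 CPM. Of 9 neural crest markers 7 were tested, 1 was called higher and 0 lower, with sums of 87.0 to 112 and 75.8 to 120 CPM. Without the 2 most abundant markers of each list the sums no longer overlapped for neural crest (without Ednrb and Twist1, 6.47 to 12.3 and 13.6 to 31.8 CPM) and neural tube (without Sox3 and Sox2, 1.43 to 4.68 and 6.82 to 10.9 CPM), and did for somites. Sox3, which is left out of that neural tube sum, went the other way (log2 fold change -0.51, not called). Pax6 alone was at 1.33 to 2.97 CPM in the wild-type and 4.67 to 8.31 CPM in Tbx20EH1Mut libraries, most of the remaining mutant sum. Tail bud markers summed to 0.425 to 1.05 and 0.594 to 2.46 CPM, with Cdx4, Wnt3a and Msgn1 at 0 in every library. Of 7 endothelial markers 3 were called higher and 0 lower, with sums of 545 to 722 and 707 to 772 CPM (3 higher and 2 lower without wild-type replicate 1), and of 7 blood markers 0 were called higher and 6 lower, with sums of 1851 to 4933 and 351 to 1097 CPM. Sums of limb bud and lateral plate, intermediate mesoderm and blood markers separated the genotypes with and without the 2 most abundant markers of the list, those of foregut, neural tube and neural crest markers in 1 of these ways only, and the part of any of these cells in the Hox levels was not tested.

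**Figure D5:**
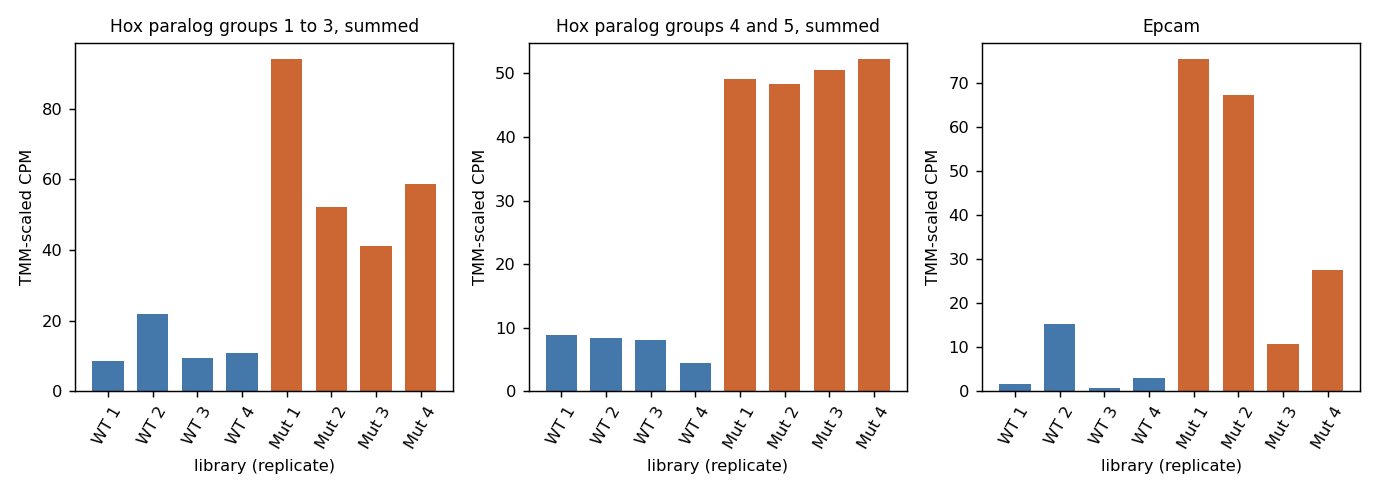
Summed level of paralog groups 1 to 3 and of groups 4 and 5 in each library beside the level of Epcam (TMM-scaled CPM). Among Tbx20EH1Mut libraries groups 1 to 3 run from 41.2 to 93.9 CPM, groups 4 and 5 from 48.4 to 52.2 CPM and Epcam from 10.7 to 75.4 CPM.

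Genes that act with or on Hox genes were read from lists chosen by function. For comparison, 14% of all genes tested were called higher and 15.3% lower. Of 18 genes of retinoid signalling, all tested, 8 were called higher and 2 lower, with a median log2 fold change of 0.65. With 1 library left out the counts ran from 4 to 10 higher and from 0 to 2 lower, and they were 4 higher without Tbx20EH1Mut replicate 1 or wild-type replicate 3 or 4, and 5 higher without Tbx20EH1Mut replicate 2. Cyp26a1 and Dhrs3 were called in all 8 of these fits. Cyp26a1, which degrades retinoic acid and is itself induced by it, rose from 3.07 ± 0.694 to 9.91 ± 2.30 CPM (SD, n = 4 per genotype), or by 1.69 on the log2 scale (adjusted p = 0.00115 with edgeR). Dhrs3, which turns retinal back to retinol, rose from 3.15 ± 0.855 to 8.16 ± 1.77 CPM, or by 1.37 on the log2 scale (adjusted p = 0.00392). Of the 9 TALE cofactors, 4 were called higher and 1 lower, with a median of 0.22. The lower call, of Pknox2, held in 3 of 8 fits with 1 library left out (adjusted p up to 0.0998). Meis2 rose from 98.0 ± 14.5 to 205 ± 12.1 CPM (1.06 on the log2 scale, adjusted p = 4.05e-04) and Pbx4 by 1.35 (adjusted p = 0.00453).

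Of 16 regulators of Hox clusters, which include Cdx, Polycomb and Trithorax genes, 13 were tested, 0 were called higher and 2 lower. The 2 lower calls are near the share of 15.3% called lower over all genes tested. With 1 library left out, 0 or 1 was called higher, with 1 without Tbx20EH1Mut replicate 1, and 1 to 3 lower, with 3 without wild-type replicate 1. Gdf11, a TGF-beta ligand that sets the trunk-to-tail Hox transition, fell from 31.1 ± 4.004 to 14.3 ± 1.74 CPM (-1.12 on the log2 scale, adjusted p = 5.56e-04), and Ctcf, which insulates chromatin domains, by a log2 fold change of -0.42 (adjusted p = 0.0274). The call of Ctcf held in 3 of 8 fits with 1 library left out (adjusted p up to 0.0804), while that of Gdf11 held in all of these. Of 9 genes that flank the clusters, 6 were tested, 2 were called higher and 3 lower. Skap2, an adaptor protein gene beyond the 3′ end of HoxA, was at 11.6 ± 0.562 CPM in the wild-type and 22.3 ± 2.27 CPM in Tbx20EH1Mut hearts (log2 fold change 0.94, adjusted p = 6.39e-04), and Skap1 beyond the 3′ end of HoxB was at 0.511 ± 0.140 and 1.86 ± 0.870 CPM (log2 fold change 1.84, adjusted p = 0.00917). Smug1 and Cbx5, beyond the 3′ end of HoxC, and Lnpk, beyond the 5′ end of HoxD, were called lower, with log2 fold changes of -0.39, -0.38 and -0.50. These 3 calls were not stable, since with 1 library left out Smug1 was called in 1 of 8 fits, Cbx5 in 2 and Lnpk in 4. Mtx2, beyond the 3′ end of HoxD, was not called (log2 fold change -0.17, adjusted p = 0.532).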

How the data were processed

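RNA from 4 wild-type and 4 Tbx20EH1Mut pools of 3 hearts was poly-A selected, made into libraries and sequenced as paired-end reads at a company. The submitters' processing notes name Trimmomatic 0.36, STAR 2.5.2b and the build GRCm38 (mm10), while the counting tool and its strand setting are not given in the sources used here. The authors deposited raw counts, whole numbers of reads per Ensembl gene that are not normalized, in 1 table per library. Of 49315 genes, 48970 had a symbol in GENCODE M21, and all 40 members had the same position there. The study's methods name pools as biological replicates, and no pair of replicate libraries agreed within sampling noise.

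The genotypes were compared with edgeR 4.0.16 in R 4.3.3 (filterByExpr, TMM, glmQLFit and glmQLFTest, genotype as the only term, Benjamini-Hochberg adjustment over all 17163 genes tested, common dispersion 0.0707). The threshold for a call was an adjusted p of 0.05. CPM was computed with TMM-scaled library sizes, and CPM per kilobase with the exon length in the tables. The steps were tested on simulated counts. Alternatives were RLE, upper-quartile and library-size scaling, DESeq2 1.42.0, voom of limma 3.58.1, no filter, a minimum of 10 counts per library, a block on replicate number (replicate block) and leaving out each library. A fit without the wild-type library and the 2 Tbx20EH1Mut libraries with the most Epcam of their genotype was added after seeing the data. Python 3.11.15 with pandas 2.3.3, numpy 2.4.6 and matplotlib 3.10.9 served for tables and plots.

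Members, gene lists and markers were chosen with earlier results of these data known. Members that were called, the 5 highest per kilobase and both antisense transcripts are given in every library, others by counts, and of each list the up to 3 genes with the lowest p, of which some are not reported here. The 38 Hox genes are not every Hox gene of the mouse, and others are not analysed here. Depths of 33359322 to 49523086 counts leave genes below 0.264 CPM mostly untested.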

Additional observations from a re-analysis of the deposited data

Results flagged for a closer look

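Among groups of 4 libraries, 52 were looked at for a single library far from the other 3, and 7 stood out, where chance gives about 1 in 20. Tbx20EH1Mut replicate 1 stood out for 3 members. In that library Hoxa2 was at 12.3 CPM (the other mutant libraries 6.78 to 7.60) and Hotairm1 at 21.0 CPM (10.3 to 12.2), both above the rest, while Hoxa5 was at 6.63 CPM and below the rest (10.4 to 10.9). Wild-type replicate 2 stood out for Hoxa3 at 3.44 CPM (other wild-type libraries 0.764 to 1.02) and for the summed HoxB level at 21.3 CPM (12.4 to 12.9). Hoxb3os was at 7.86 CPM in wild-type replicate 1 (4.58 to 4.89). Haglr was at 0.188 CPM in Tbx20EH1Mut replicate 3 (0.451 to 0.466). The cause of these departures was not tested.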

How the results depend on the processing

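The number of members called higher was 11 as reported, 10 to 12 with 1 library left out, 11 with RLE or library-size scaling, 12 with upper-quartile scaling and with limma-voom (Hoxa9 added), 8 with at least 10 counts in every library (8 members tested), 13 without a filter (Hoxb6 and Hoxb7 added) and 15 with DESeq2 (these 3 and Hoxc4 added). No member was called lower in any fit. Over 17 alternative fits, 10 of the 11 called members were called in every fit that tested them, and Hoxa3 was the exception. Of the per-gene comparisons 3 lost the threshold, 8 gained it and 0 changed direction. The number of tested members whose genotypes do not overlap was 11, and 10 with library size alone.

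Among all genes tested, 2406 were called higher and 2618 lower. With 1 library left out the counts ran from 1436 to 3237 higher and from 1496 to 3349 lower. Without wild-type replicate 3 they were 1440 and 1621, without wild-type replicate 4 1436 and 1565, and without Tbx20EH1Mut replicate 4 1532 and 1496. Upper-quartile scaling gave 2859 higher and 1997 lower and moved the median of all genes by 0.0843 on the log2 scale. The cause of these shifts was not tested. Deviations of same-numbered libraries correlated at -0.268, 0.338, 0.0601 and 0.0599, and those of libraries with different numbers at -0.424 to 0.412. These values cannot tell whether the replicate numbers pair the libraries. A replicate block called 11 members higher and 0 lower, and 1997 genes higher and 1948 lower over the whole table. Under the block the adjusted p was 0.0623 for Ctcf, 0.103 for Smug1, 0.0919 for Cbx5 and 0.135 for 5730596B20Rik, and 11 foregut markers were called higher. It called 7 retinoid genes higher and 0 lower, and 4 TALE cofactors higher and 0 lower, so the lower calls of both lists were lost. It also called 3 neural tube, 3 neural crest and 2 endothelial markers higher, with an adjusted p of 0.0173 for Sox2. With 1 library left out, small counts moved as well: 1 neural tube and 0 neural crest markers were called higher without Tbx20EH1Mut replicate 1 or 4 or wild-type replicate 3 or 4. Without wild-type replicate 2, 3 neural tube, 2 neural crest and 3 somite markers were called higher, and without Tbx20EH1Mut replicate 3, 3 neural crest markers were. Depth limits the 5′ members, for which a few reads per library decide the value.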
